A study of Rattus norvegicus with 6 samples.

Results

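The genes described here encode the enzymes that burn fatty acids and feed and run the tricarboxylic acid (TCA) cycle. They were chosen by name, as 33 genes: 18 of beta oxidation and 15 of the TCA cycle and pyruvate dehydrogenase. Each of them was read by exactly 1 probe, found through the RefSeq accession that the scanner files give for it, out of 24684 non-control probes on the array. RNA of rat pancreas was compared between rats with acute pancreatitis (AP) and control rats on 1-colour Agilent arrays for messenger and long noncoding RNAs. The AP rats were male, 6 weeks old, and had received 4% sodium taurocholate, a bile salt, at 1 mL/kg into the pancreatic duct against its flow, and were killed after 9 h. The control rats were male and 6 weeks old; the labels name neither the strain of either group nor whether controls had a sham operation. Each group has 3 deposited scans, AP 1 to 3 and control 1 to 3.

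Beta oxidation shortens fatty acids in mitochondria by repeated cycles of dehydrogenation, hydration, a further dehydrogenation and thiolytic cleavage, and releases acetyl-CoA. Pyruvate dehydrogenase makes acetyl-CoA from pyruvate, and the TCA cycle oxidises it and passes the electrons to the respiratory chain. The exocrine pancreas depends on mitochondrial ATP for enzyme synthesis and secretion, and a separate beta oxidation system in peroxisomes handles very long and branched chains.

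The scans AP 2 and AP 3 came from 1 array, and so did control 2 and control 3. Deviations of single spots from their probe's mean correlated at r = 0.995 and r = 0.997 in these pairs, against 0.447 to 0.836 in the other pairs (2098 spots of 676 probes, which are not independent). The tests therefore compared 2 arrays with 2. Their p-values rest only on the spread between these arrays, partly that of the probe itself and partly that pooled over all probes. AP scans were dimmer, with a 75th percentile of the signal of 70.1 to 77.7, against 140 to 147 on control scans. All values are log2 signals relative to that percentile of their own array, so a fold is relative to the whole array. The median log2 fold change over the 13220 probes tested was 0.08 on this scale and -0.88 without scaling. Some marker genes went against the labels. All 4 genes of acute inflammation that were checked were lower on the arrays labelled AP: Cxcl2 at least 215-fold, Il6 at least 29.1-fold, Ccl2 57.8-fold and Il1b 15.8-fold. These were chosen with their values known, and every direction below follows the deposited labels. Whether the labels were exchanged was not tested. An exchange would turn every direction given here, and with it each rise, fall and share of genes lower or higher. A fold is written "at least" where no scan of the dimmer group was well above background, and was then taken against the lowest signal that was.

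Most of the 33 genes were lower on AP arrays. By limma's test with Benjamini-Hochberg adjustment over all probes, 22 of 33 were lower (66.7%), 2 were higher (6.06%) and 9 did not pass. Cs, among the lower, and Ehhadh, among the higher, were bright enough to be tested only through the group in which they were brighter. Among all probes tested 28.2% were lower and 26.9% were higher by the same rule, and 55.1% changed in either direction, against 24 of the 33 genes. The AP and control arrays did not overlap for 32 of 33 genes, Sucla2 being the exception, against 79.5% of probes. Without scaling between arrays, 29 genes were lower and 1 was higher, against 59.0% and 5.81% of probes. Beta oxidation had 11 of 18 lower, 2 higher and 5 not past the threshold, with a median log2 fold change of -0.74. The TCA cycle and pyruvate dehydrogenase had 11 of 15 lower, none higher and 4 not past it, with a median of -1.18, or -1.14 with genes at background on AP arrays at their bound. Over the genes the median size of the change was 1.14, while the arrays of a group differed by a median of 0.149 (AP) and 0.080 (control), and scans of the same array by 0.036 and 0.024. In bulk tissue fewer cells of a type and less RNA per cell cannot be told apart.

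**Figure D1:**
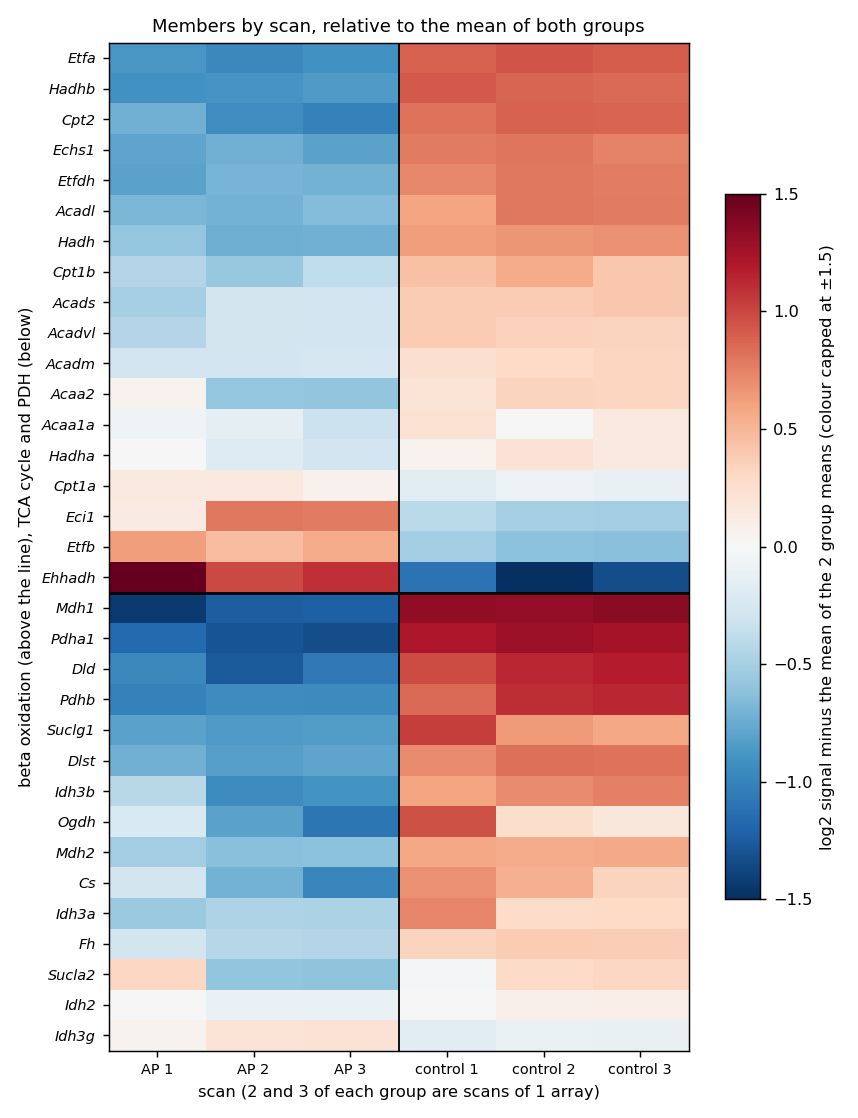
Log2 signal of the 33 genes on the 6 scans (columns, AP left of control), each relative to the mean of its 2 group means, with colour capped at ±1.5. Most rows are blue on the AP scans and red on the control scans; Ehhadh, Etfb, Eci1 and Cpt1a, above the line, and Idh3g, below it, run the other way, though only Ehhadh and Etfb passed the test.

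Entry of fatty acids into mitochondria runs through the carnitine shuttle, in which Cpt1 enzymes of the outer membrane attach carnitine and Cpt2 of the inner membrane removes it. The 3 genes differed from each other. Cpt1a, the form of liver and many other tissues, had 1.99, 1.99 and 1.91 on AP scans 1 to 3, against 1.69, 1.75 and 1.73 on control scans. The scans did not overlap, but the change of 0.25 ± 0.09 (SE, n = 2 arrays per group) did not pass (adjusted p = 0.0936), and it was -0.70 without scaling (adjusted p = 0.00867). Cpt1b, the form of muscle and fat, had -1.77, -1.90 and -1.71 on AP scans, against -0.89, -0.77 and -0.92 on control scans. It was 1.89-fold lower (-0.92 ± 0.09, adjusted p = 0.00434), and stood at -0.11 (adjusted p = 0.766) when the background was corrected with normexp and the 75th percentile was kept. Cpt2 had -0.44, -0.65 and -0.72 on AP scans, against 1.10, 1.18 and 1.17 on control scans, with all AP values below all control values. It was 3.24-fold lower (-1.70 ± 0.13, adjusted p = 0.00257). Within an array the log2 ratio of Cpt1b to Cpt1a was -3.76 and -3.75 on AP arrays, against -2.58 and -2.59 on control arrays. This difference depends on the background correction. With normexp and the 75th percentile Cpt1a also stood at -0.11, so the ratio hardly differed between the groups. With normexp and quantile normalization Cpt1a was 0.29 and Cpt1b -0.32.

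The acyl-CoA dehydrogenases catalyse the opening dehydrogenation, each for a range of chain lengths, and all 4 that were chosen were lower. Acadl, for long chains, averaged 1.05 on AP arrays and 2.42 on control arrays (-1.37 ± 0.12, adjusted p = 0.00304). Smaller changes were measured for Acads, for short chains (-0.77), Acadvl, for very long chains (-0.72), and Acadm, for medium chains (-0.55, adjusted p = 0.0142). These 3 changes lost their call in 4, 4 and 6 of 23 other settings. With median scaling the adjusted p was 0.0643, 0.0865 and 0.187. With normexp and the 75th percentile Acads (0.0974) and Acadvl (0.131) lost it, while Acadm kept it (0.0463). All 3 also lost it without control array 1 and without control array 2. Acadm further lost it without AP array 1, without AP array 2 and with replicate numbers entered as a block.

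Of the hydratase, the short-chain dehydrogenase and the trifunctional protein that act next, Echs1, Hadh and Hadhb were lower and Hadha did not pass. Echs1, the short-chain enoyl-CoA hydratase, had 0.78, 0.84 and 0.76 on AP scans, against 2.35, 2.37 and 2.31 on control scans. It was 2.94-fold lower (-1.56 ± 0.09, adjusted p = 0.00154). Hadh, the short-chain 3-hydroxyacyl-CoA dehydrogenase, averaged 1.87 on AP arrays and 3.18 on control arrays (-1.31 ± 0.11, adjusted p = 0.00295). The trifunctional protein carries out the last 3 steps on long chains, with Hadha as its alpha and Hadhb as its beta subunit. Hadhb had 2.76, 2.78 and 2.82 on AP scans, against 4.59, 4.55 and 4.53 on control scans, 3.44-fold lower (-1.78 ± 0.09, adjusted p = 0.00128). Hadha had 1.26, 1.07 and 0.98 on AP scans, against 1.32, 1.49 and 1.41 on control scans. All AP values of Hadha lay below the control values, but the change was small and did not pass (-0.24 ± 0.13, adjusted p = 0.204). The log2 ratio of Hadha to Hadhb within an array was -1.50 and -1.78 on AP arrays, against -3.27 and -3.09 on control arrays.

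Hadha and Hadhb lie head to head, and their promoters are shown because the change differed between the 2 genes. In the RefSeq table (build GRCr8; 250 bases before to 50 after the start) the starts are 301 bases apart on chromosome 6, and 200 bases of the windows are shared. The Hadha window is chr6:31907551-31907850 on the plus strand and the Hadhb window chr6:31907451-31907750 on the minus strand. Capitals mark AGGTCA on either strand, the core hexamer bound by PPAR, estrogen-related and other nuclear receptors. It has 1 match in the Hadhb window, starting 43 bases into the transcript, and none in the Hadha window. That match lies in the part of the Hadhb window that the Hadha window does not reach, so it does not set the 2 promoters apart.
Hadha: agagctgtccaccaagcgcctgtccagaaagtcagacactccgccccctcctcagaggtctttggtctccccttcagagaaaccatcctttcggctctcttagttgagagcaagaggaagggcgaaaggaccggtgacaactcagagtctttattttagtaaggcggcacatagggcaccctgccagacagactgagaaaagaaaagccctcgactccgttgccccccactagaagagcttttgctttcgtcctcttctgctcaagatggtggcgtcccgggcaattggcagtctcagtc
Hadhb: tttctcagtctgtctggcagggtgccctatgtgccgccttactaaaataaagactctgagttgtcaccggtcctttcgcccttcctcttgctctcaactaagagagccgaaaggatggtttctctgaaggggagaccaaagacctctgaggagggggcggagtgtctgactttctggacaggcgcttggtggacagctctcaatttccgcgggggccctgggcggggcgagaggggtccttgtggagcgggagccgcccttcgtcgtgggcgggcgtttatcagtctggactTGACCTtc
The table held 29 of the 33 promoters, without Acaa2, Acadl, Cpt1b and Idh3a. AGGTCA was found in 7 of these 29 (24.1%), against 16.2% of all 33469 promoters, and in 5 of 19 (26.3%) of those whose gene was lower. The others with a match were Acadvl, Echs1, Eci1, Idh3g, Mdh1 and Pdhb. TCAAGGTCA, which contains AGGTCA, was in none of the 29 and in 0.433% of all, the direct repeat of AGGTCA with 1 base between the copies in none and in 0.0538%, and the palindromic NRF1 consensus in none and in 0.852%. The promoters of the 29 had a median GC content of 60.7%, against 51.7% in the whole table.

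The electron transfer flavoprotein takes electrons from the acyl-CoA dehydrogenases and passes them through Etfdh to ubiquinone. Its subunits went in opposite directions. Etfa, the alpha subunit, had 1.28, 1.18 and 1.25 on AP scans, against 3.04, 3.10 and 3.06 on control scans. It was 3.51-fold lower (-1.81 ± 0.09, adjusted p = 0.00128), the largest fall among the 18 genes. Etfb, the beta subunit, had 2.07, 1.91 and 2.00 on AP scans, against 0.91, 0.83 and 0.82 on control scans, again without overlap. It was 2.21-fold higher (1.14 ± 0.11, adjusted p = 0.00365), but 0.19 without scaling (adjusted p = 0.304) and 0.59 with normexp and the 75th percentile (0.107). The log2 ratio of Etfa to Etfb was -0.78 and -0.73 on AP arrays, against 2.13 and 2.26 on control arrays, and no scaling of whole arrays alters that ratio. Etfdh had 0.83, 0.93 and 0.93 on AP scans, against 2.36, 2.42 and 2.40 on control scans, 2.84-fold lower (-1.51 ± 0.10, adjusted p = 0.00195).

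Ehhadh, the bifunctional enzyme of peroxisomal beta oxidation and a known PPAR-alpha target, was the other gene that was higher. It had -0.74, -1.25 and -1.14 on AP scans, against -3.35, -3.76 and -3.57 on control scans, none of which was well above background. It was at least 5.77-fold higher. The adjusted p of 0.0033 belongs to the fitted log2 fold change of 2.54, not to this bound. Ehhadh was bright enough to be tested through the AP scans alone. The call was narrowly lost with normexp and the 75th percentile (0.71, adjusted p = 0.0538). Its promoter, chr11:92746159-92746458 on the plus strand of GRCr8, is shown as that of the gene with the largest rise and has no match to the motifs searched.
Ehhadh: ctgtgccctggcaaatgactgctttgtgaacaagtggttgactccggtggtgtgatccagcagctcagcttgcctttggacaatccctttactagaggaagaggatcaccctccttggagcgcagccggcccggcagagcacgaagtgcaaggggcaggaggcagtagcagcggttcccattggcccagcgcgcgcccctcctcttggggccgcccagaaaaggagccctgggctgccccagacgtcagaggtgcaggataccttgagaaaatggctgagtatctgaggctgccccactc
Acaa1a, a peroxisomal 3-ketoacyl-CoA thiolase, averaged -0.39 on AP arrays and -0.09 on control arrays and did not pass (-0.30 ± 0.12, adjusted p = 0.111). Neither did the mitochondrial thiolase Acaa2 (-0.53 ± 0.25, adjusted p = 0.157), which was 2.46 on AP array 1, near its control values of 2.61 to 2.74, and 1.82 on AP array 2. Eci1, an isomerase for unsaturated chains, averaged 2.20 on AP arrays and 1.30 on control arrays. Its change of 0.91 ± 0.26 fell just outside the threshold (adjusted p = 0.0531), was called in 9 other settings, and was -0.05 without scaling.

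**Figure D2:**
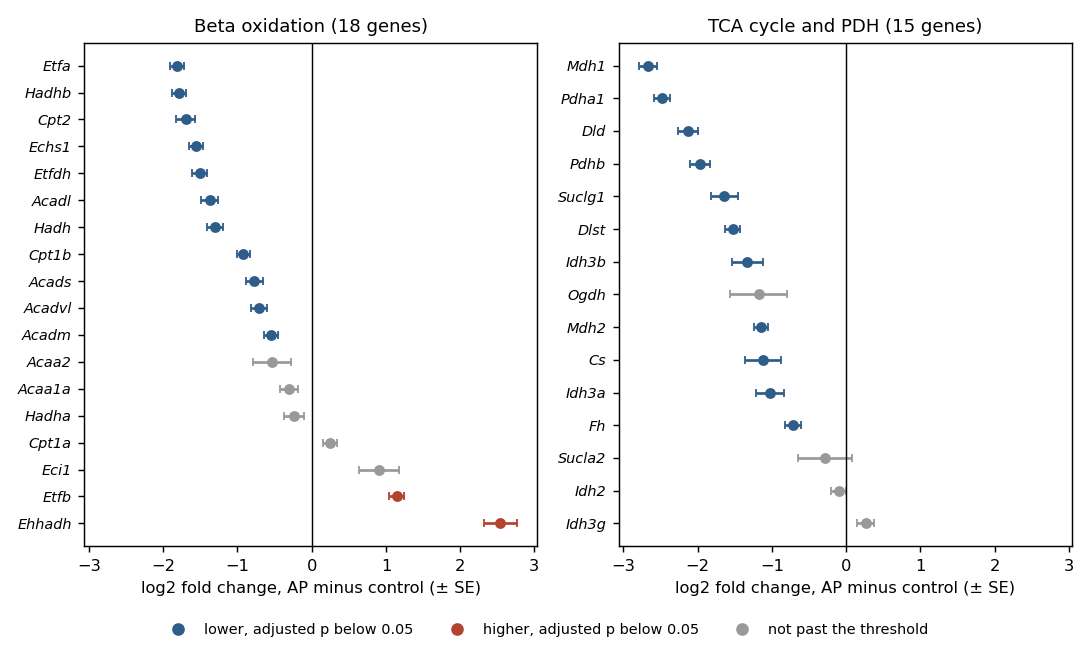
Log2 fold change (AP minus control, ± SE of the limma fit, 2 arrays per group) for the 18 beta oxidation genes on the left and the 15 TCA cycle and pyruvate dehydrogenase genes on the right. Values run between -1.81 for Etfa and 2.54 for Ehhadh on the left, a fitted value with the control group at background, and between -2.67 for Mdh1 and 0.26 for Idh3g on the right.

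Pyruvate dehydrogenase was lower in each subunit that was measured. Pdha1, the alpha subunit of its E1 component, had 2.34, 2.22 and 2.18 on AP scans, against 4.72, 4.78 and 4.76 on control scans. It was 5.57-fold lower (-2.48 ± 0.11, adjusted p = 0.000953). Pdhb, the beta subunit of E1, had 0.68, 0.75 and 0.74 on AP scans, against 2.55, 2.80 and 2.84 on control scans, 3.91-fold lower (-1.97 ± 0.14, adjusted p = 0.0021). Dld, the E3 component that pyruvate and 2-oxoglutarate dehydrogenase share, had 0.99, 0.69 and 0.88 on AP scans, against 2.93, 3.07 and 3.12 on control scans, 4.37-fold lower (-2.13 ± 0.13, adjusted p = 0.00175). The AP and control scans did not overlap for any of the 3. Dlat, the E2 component, which is not among the 33, was 6.49-fold lower (-2.70 ± 0.10, adjusted p = 0.000747).

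**Figure D3:**
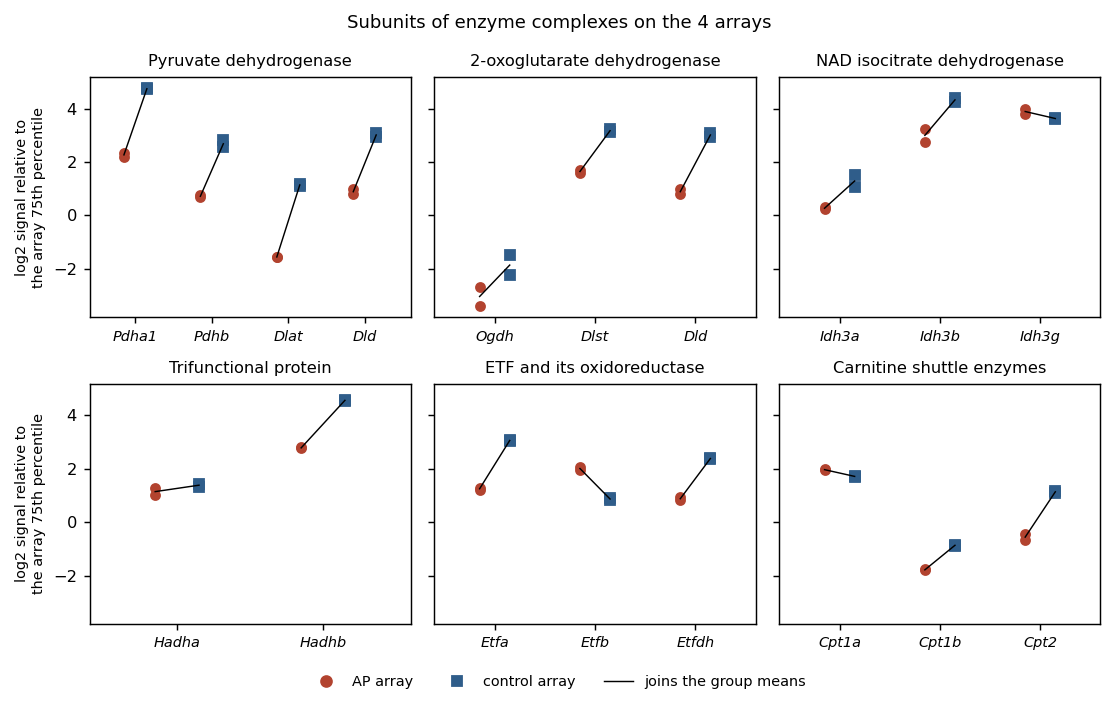
Log2 signal of subunits and partner enzymes on the 2 AP arrays (circles) and the 2 control arrays (squares), with a line between the group means; heights can be compared between groups for a gene, not between genes. All 4 pyruvate dehydrogenase genes were lower on AP arrays, while Etfb lies above its control values and Etfa below.

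Malate dehydrogenase makes oxaloacetate from malate, and its cytosolic form had the largest fall among the 33 genes. Mdh1, that form and part of the malate-aspartate shuttle, had 3.51, 3.70 and 3.71 on AP scans, against 6.27, 6.26 and 6.29 on control scans. It was 6.36-fold lower (-2.67 ± 0.12, adjusted p = 0.000964). Mdh2, the mitochondrial form, averaged 3.37 on AP arrays and 4.51 on control arrays, 2.21-fold lower (-1.14 ± 0.10, adjusted p = 0.0031). The log2 ratio of Mdh1 to Mdh2 was 0.09 and 0.38 on AP arrays, against 1.75 and 1.77 on control arrays. The Mdh1 promoter, chr14:99847178-99847477 on the minus strand of GRCr8, is shown for the gene with the largest fall; its AGGTCA match, in capitals, begins 18 bases into the transcript.
Mdh1: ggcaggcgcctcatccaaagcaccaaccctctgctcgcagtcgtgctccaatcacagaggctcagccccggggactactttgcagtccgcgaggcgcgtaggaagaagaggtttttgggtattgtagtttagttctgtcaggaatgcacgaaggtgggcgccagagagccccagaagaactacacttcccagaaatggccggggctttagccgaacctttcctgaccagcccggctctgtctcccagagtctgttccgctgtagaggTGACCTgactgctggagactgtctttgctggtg
Cs, citrate synthase, which opens the cycle, had -2.54, -2.98 and -3.24 on AP scans, against -1.57, -1.73 and -1.93 on control scans. No AP scan was well above background, and Cs was bright enough to be tested through the control scans alone. It was called lower, by at least 1.74-fold. The adjusted p of 0.027 belongs to the fitted fall of 2.17-fold, not to this bound. That call did not hold with no filter on dim probes (0.05004), without control array 1 (0.116), without control array 2 (0.0871) or without AP array 2 (0.0557). With normexp and the 75th percentile the value was 0.047 (0.904).

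The isocitrate dehydrogenases make 2-oxoglutarate. Of the NAD-dependent enzyme, the subunits Idh3a and Idh3b were lower and Idh3g did not pass. Idh3b averaged 3.00 on AP arrays and 4.33 on control arrays (-1.33 ± 0.21, adjusted p = 0.0121), and lost its call without control array 1 (0.0580) or control array 2 (0.0737). Idh3a averaged 0.27 on AP arrays and 1.29 on control arrays (-1.02 ± 0.19, adjusted p = 0.0174), and lost its call without AP array 1 (0.0761), without AP array 2 (0.0695) and with normexp and the 75th percentile (-0.67, adjusted p = 0.062). Idh3g, the gamma subunit, averaged 3.89 on AP arrays and 3.63 on control arrays (0.26 ± 0.11, adjusted p = 0.12), or -0.70 without scaling (adjusted p = 0.00672). Idh2, the NADP-dependent mitochondrial enzyme, moved least, with 2.42, 2.31 and 2.32 on AP scans, against 2.43, 2.50 and 2.52 on control scans (-0.10 ± 0.10, adjusted p = 0.454). Its AP and control values nearly touched.

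Between 2-oxoglutarate and malate, Dlst, Suclg1 and Fh were lower, and Ogdh and Sucla2 did not pass. Dlst, the E2 component of 2-oxoglutarate dehydrogenase, averaged 1.64 on AP arrays and 3.17 on control arrays, 2.88-fold lower (-1.53 ± 0.10, adjusted p = 0.00206). Ogdh, its E1 component, was not well above background on any AP scan, with fitted means of -3.04 on AP arrays and -1.86 on control arrays, and did not pass (adjusted p = 0.0713). Its value was 0.063 with normexp and the 75th percentile. Suclg1, the alpha subunit of succinate-CoA ligase, had 2.09, 2.04 and 2.05 on AP scans, against 3.92, 3.52 and 3.46 on control scans, 3.12-fold lower (-1.64 ± 0.18, adjusted p = 0.00529). Sucla2, the ADP-forming beta subunit of that ligase, had 0.57, -0.33 and -0.34 on AP scans, against 0.25, 0.55 and 0.57 on control scans. Its AP 1 and control values overlapped (-0.28 ± 0.36, adjusted p = 0.55), and the value was 0.17 without AP array 2. Fh, fumarase, averaged 1.37 on AP arrays and 2.08 on control arrays (-0.71 ± 0.11, adjusted p = 0.0104), and lost its call without control array 1 (0.0513), without control array 2 (0.0611), with median scaling (0.0887) and with normexp and the 75th percentile (0.0527).

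Set side by side, the TCA cycle and pyruvate dehydrogenase genes had the larger mean decrease. The mean log2 signal over the 15 genes was 1.41 and 1.21 on AP arrays, against 2.60 and 2.56 on control arrays, a difference of -1.27. Over the 18 beta oxidation genes it was 0.94 and 0.89 on AP arrays, against 1.48 and 1.49 on control arrays, a difference of -0.57. These means include values at background, of Ehhadh on control arrays and of Cs and Ogdh on AP arrays. Without these 3 genes, a choice made after seeing the data, the differences were -1.29 over 13 genes and -0.75 over 17 genes. The medians of the fold changes differed by -0.43 (TCA cycle and pyruvate dehydrogenase minus beta oxidation). That value was negative in each of the 23 other settings, but ranged between -0.78 without AP array 1 and -0.24 without AP array 2, and it was not tested. The 3 largest rises among the 33, Ehhadh, Etfb and Eci1, were all beta oxidation genes. Of these, Ehhadh was bright enough to be tested through the AP scans alone, and Eci1 did not pass. Without scaling Ehhadh was 1.58, Etfb 0.19 and Eci1 -0.05.

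Other genes of the same routes were taken from lists fixed by name. Of 16 further genes of the TCA cycle, pyruvate dehydrogenase and its control that were tested, 11 were lower (68.8%, against 28.2% of all probes) and 1 was higher (6.25%, against 26.9%), with a median of -1.01. Pc, pyruvate carboxylase, which makes oxaloacetate from pyruvate, was 12.5-fold lower (-3.64 ± 0.13, adjusted p = 0.000728), Dlat and the kinase Pdk1, which inactivates pyruvate dehydrogenase, 6.49-fold and 6.40-fold, and Aco1, the cytosolic aconitase, 5.27-fold. The kinase Pdk2 was 2.13-fold higher (1.09 ± 0.15, adjusted p = 0.00817), or 0.13 without scaling (adjusted p = 0.414). All 4 subunits of succinate dehydrogenase were lower, with values of -1.13 (Sdha), -0.91 (Sdhb), -0.76 (Sdhc) and -1.08 (Sdhd). Of 23 further genes of fatty acid uptake, activation and oxidation, 12 were lower (52.2%, against 28.2% of all probes) and 6 were higher (26.1%, near the 26.9% of all probes), with a median of -0.53. Acsl1, a long-chain acyl-CoA synthetase, was 13.5-fold lower (-3.75 ± 0.21, adjusted p = 0.00143), the fatty acid receptor and transporter Cd36 13.0-fold, the synthetase Acsl4 5.66-fold and the transporter Slc27a1 5.19-fold. Higher were Acaa1b, a peroxisomal thiolase close in sequence to Acaa1a (4.17-fold), Slc27a2, a very long chain acyl-CoA synthetase (3.86-fold), Fabp3, a fatty acid carrier (2.26-fold) and Cpt1c, the brain form of Cpt1 (2.24-fold). Without scaling none of these 4 passed, at 1.10 for Acaa1b (adjusted p = 0.0574), 0.99 for Slc27a2 (0.0522), 0.22 for Fabp3 (0.594) and 0.20 for Cpt1c (0.366). Cross-hybridisation between Acaa1a and Acaa1b was not tested.

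Among genes of ketone body metabolism, the acetyl-CoA acetyltransferases Acat1 (-0.93) and Acat2 (-0.89) were lower, and so was Oxct1 (-0.91), which activates acetoacetate for oxidation. Of 9 tested transcriptional regulators 3 were lower (33.3%, near the 28.2% of all probes) and none was higher. Pparg, the main regulator of fat cells, was 22.3-fold lower (-4.48 ± 0.27, adjusted p = 0.00162), Ppard 2.91-fold and Esrra, a regulator of mitochondrial genes, 2.50-fold. Ppara, Ppargc1a, Ppargc1b and Esrrg were not well above background on any scan.

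**Figure D4:**
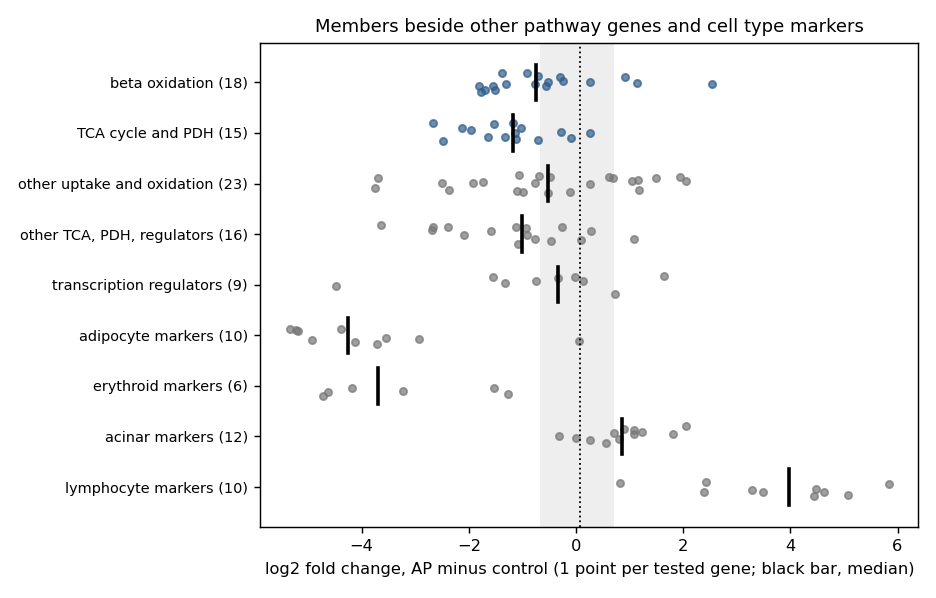
Log2 fold change (AP minus control) of each tested gene (points) with the median of its list (black bar), for the 2 sets described here (blue), other genes of the routes and cell type markers (grey), with the number of tested genes in brackets. The grey band spans the middle quartiles of all 13220 probes and the dotted line their median of 0.08; the medians of the 2 sets, -0.74 and -1.18, lie between those of the adipocyte and the acinar markers, -4.25 and 0.85.

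Markers of cell types also differed between the groups, some lists lower and others higher on AP arrays, and their part in the results was not tested. Of the adipocyte markers 8 of 10 tested were lower (80%, against 28.2% of all probes) and none was higher (median -4.25). Their summed signal, on the linear scale, was 19.2 and 19.0 on AP arrays, against 515 and 521 on control arrays. Of the erythroid markers 6 of 6 were lower (100%, against 28.2% of all probes), with a summed signal of 29.2 and 30.0 on AP arrays, against 644 and 743 on control arrays. Of the lymphocyte markers 9 of 10 were higher (90%, against 26.9% of all probes), with sums of 63.8 and 54.4 on AP arrays, against 13.4 and 11.6 on control arrays. Of the acinar markers 9 of 12 were higher (75%, against 26.9% of all probes), with a median of 0.85, or -0.11 without scaling. Their sums were 84.1 and 74.7 on AP arrays, against 60.3 and 59.2 on control arrays. Striated muscle markers had 1 of 4 lower (25%, Myl1) and hepatocyte markers 1 of 3 lower and 1 higher (33.3% each), near the shares of all probes. Islet markers had 2 of 3 lower (66.7%). Neutrophil and macrophage markers had 2 of 8 lower (25%) and 3 higher (37.5%). The lower ones were S100a8 (at least 90.7-fold) and Csf3r (at least 3.07-fold), and the higher ones Marco (at least 9.13-fold), Fcgr3a (1.64-fold) and Csf1r (1.28-fold). The same sums over the genes described here were 72.8 and 70.2 on AP arrays, against 209 and 211 on control arrays, for the TCA cycle and pyruvate dehydrogenase, and 46.0 and 45.2 on AP arrays, against 84.8 and 86.1 on control arrays, for beta oxidation. The tested digestive enzymes of acinar cells and the acinar factor Bhlha15 were well above background on every scan. The acinar factors Ptf1a, Nr5a2 and Rbpjl were on none, nor were Ucp1, Cd4 and Ccr7. Bhlha15 was 4.13-fold higher on AP arrays (adjusted p = 0.0014), and its log2 fold change was 1.09 without scaling (adjusted p = 0.00459).

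**Figure D5:**
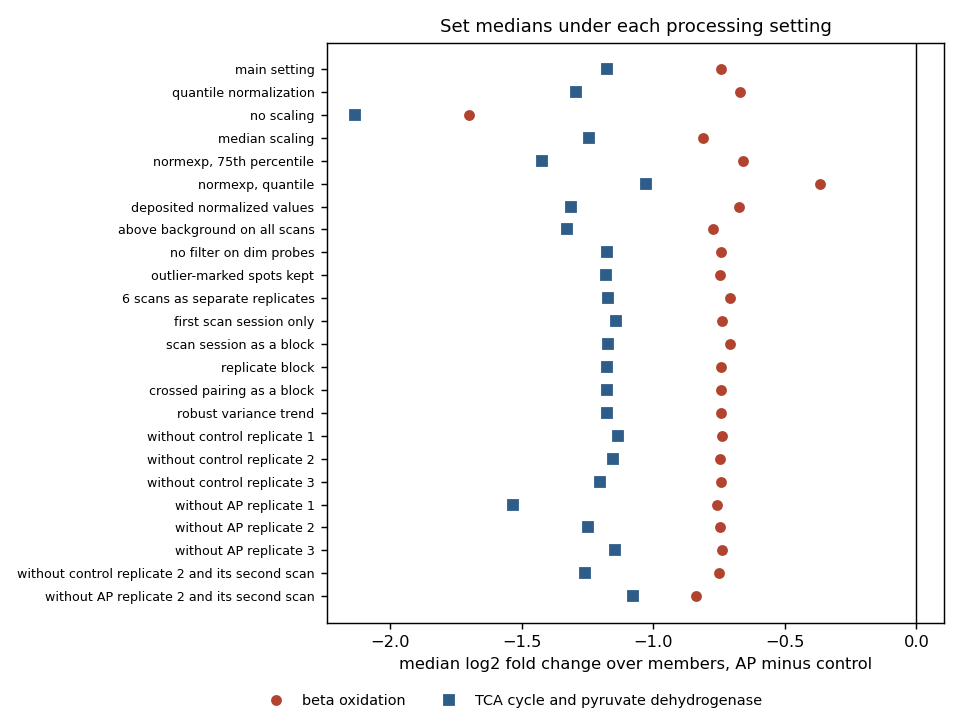
Median log2 fold change over the 18 beta oxidation genes (circles) and the 15 TCA cycle and pyruvate dehydrogenase genes (squares) under the main setting and 23 others. Both medians were below 0 in all settings, at -1.70 and -2.13 without scaling and at -0.37 and -1.03 with normexp and quantile normalization.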

How the data were processed

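Scan images were quantified in Feature Extraction 11.0.1.1 (Agilent) under a 1-colour protocol, per the file headers. Spot intensity in the deposited scanner files is already background-subtracted but not scaled between arrays. Values of the deposited normalized table are in log2, and their median is 4.27 in each of the 6 columns. It correlated with the log2 scanner signals at r = 0.987 to 0.999 across probes, and its centring and tool are not given in the sources used here.

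Spots marked as outliers were dropped, log2 signals were averaged over the spots of each probe, and each array's 75th percentile over non-control probes was taken off. Scans of the same array were averaged. The 13220 probes that 3 or more of the 6 scans marked as well above background were tested with limma 3.58.1 (R 4.3.3, lmFit and eBayes, two-sided) at 2 residual degrees of freedom. A gene changed at an adjusted p below 0.05 (Benjamini-Hochberg over all probes). The files hold no mean spot signal, so normexp (offset 50) used the median spot signal in its place. Symbols came from a RefSeq table (GRCr8), matched on the accession without its version for 14294 probes. For genes with several probes the brightest tested was used. Promoter sequences are RefSeq's. Slide position follows the group (AP in slots 3 and 4, control in slots 1 and 2), and the place on the slide and the group cannot be told apart. Scan 3 of each group belonged to a later session than scans 1 and 2. The fit was also run on simulated data with independent noise, few changed probes and no scaling step. Such data cannot show whether the scaling between these arrays is right. Tables were prepared with Python 3.11.15.

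The genes and lists were chosen with earlier results of these data known. Values on every scan were given for the 5 largest falls and rises among the called genes of each set, for Cpt1a, Cpt1b, Cpt2, Cs and Pdha1, and for the gene nearest to 0 in each set; Sucla2 was added after its values were seen. From the lists of other genes up to 4 called genes in each direction were named. Succinate dehydrogenase, regulators at background, Bhlha15 and the called neutrophil and macrophage markers were added after their values were seen. Some genes of these lists are not reported here. The 23 alternatives are described in the closing section.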

Additional observations from a re-analysis of the deposited data

How the results depend on the processing

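The 24 called genes were fitted in 23 other settings. Of these genes 14 kept their direction and their call in each setting: Acadl, Cpt2, Echs1, Etfa, Etfdh, Hadh, Hadhb, Dld, Dlst, Mdh1, Mdh2, Pdha1, Pdhb and Suclg1. Without scaling between arrays the medians were -1.70 (beta oxidation) and -2.13 (TCA cycle and pyruvate dehydrogenase), 1 beta oxidation gene was higher, 59.0% of all probes were lower, and Cpt1a (-0.70), Eci1 (-0.051) and Idh3g (-0.70) changed sign. With normexp and the 75th percentile 9 beta oxidation and 8 TCA genes were lower, against 11 and 11, no beta oxidation gene was higher, the TCA median was -1.42, the difference of medians was -0.76, and Cpt1a (-0.11), Cs (0.047), Idh3g (-0.16) and Ogdh (0.063) changed sign. Over all probes that setting called 1723 lower and 936 higher, against 3725 and 3557. With median scaling 8 beta oxidation and 11 TCA genes were lower. With normexp and quantile normalization the medians were -0.37 and -1.03 and their difference -0.66, with 4 beta oxidation genes and 1 TCA gene higher. Quantile normalization alone and the deposited normalized values each gave 4 beta oxidation genes higher, and differences of -0.62 and -0.64. Idh2 turned positive in these 3 settings (0.094 with normexp and quantile, 0.10 with quantile alone and 0.092 as deposited). With only probes above background on all scans, which drops Cs, Ogdh and Ehhadh, the TCA median was -1.33. Without scan averaging (6 scans as separate replicates, or with the scan session as a block) 4 beta oxidation genes and 1 TCA gene were higher; a robust variance trend also gave 4. Leaving out 1 scan or array gave 8 to 11 genes lower in each set, 2 to 3 beta oxidation genes and 0 TCA genes higher, medians of -0.84 to -0.74 and -1.53 to -1.08, and a difference of -0.78 to -0.24 (without control array 1, -1.13 and -0.40); Sucla2 was 0.17 without AP array 2. With 1 array left in a group, that array is assumed to vary like the other group. When replicate numbers entered as a block, 10 and 12 genes were lower, and Acadm alone lost its call (adjusted p = 0.0565). Same-numbered arrays deviated from their group means with r = -0.214, so the numbers were not taken as pairs; with the crossed pairing, added after seeing the data, 11 and 11 were lower and 3 and 0 higher. Averaging all probes of a gene changes no value here, since each gene has 1 probe. Precision is limited by having 2 arrays in each group.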
